A study of Drosophila melanogaster with 25 samples.

Results

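The enzymes described here are 30 genes of central sugar metabolism in the fly brain: 14 of glycolysis, 2 of the glycerol phosphate shuttle, 2 of the pyruvate dehydrogenase complex and 12 of the tricarboxylic acid (TCA) cycle. They were picked by FlyBase symbol for their place in the pathway, with no measured value in the rule. All 30 were among the 16060 genes of the deposited table, the pyruvate kinase gene Pyk under its annotated spelling PyK. Of these, 29 passed a minimum of 1 RPKM in at least 5 libraries, as did 7985 genes in all. RPKM is the number of reads of a gene divided by its length in kilobases and by the size of the library.

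RNA of Drosophila melanogaster brains was sequenced in 25 libraries. The groups were untreated females (n = 5), untreated males (n = 7), and females (n = 7) and males (n = 6) after a long photodynamic exposure (PDE), in which light and a light-absorbing compound together form reactive oxygen species. Treated samples are titled PDT, taken here to mean PDE. The series asks how this exposure acts on the oxidative stress response. The sources used here do not give the strain, genotype, age, compound, light dose or duration. They also do not state how many flies went into a library, or that replicates are independent, so the p-values measure only the spread between these libraries, which may be technical.

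Glycolysis turns glucose into pyruvate in the cytosol and yields ATP and NADH. Pyruvate then enters the mitochondrion, where pyruvate dehydrogenase converts it to acetyl-CoA and the TCA cycle oxidises it, feeding electrons to the respiratory chain. The electrons of cytosolic NADH reach that chain through the glycerol phosphate shuttle, or are passed back to pyruvate by lactate dehydrogenase. In the fly brain, glia are known for strong glycolysis and for handing lactate and alanine to neurons, which burn them in their mitochondria.

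Library totals, recovered from the steps between low RPKM values, ran from 8.88 to 58.73 M reads. The neuronal gene nSyb lay at 271 RPKM or above in all libraries, and repo, which marks glia, at 23.2 RPKM or above. The neuronal marker elav stayed at or below 0.047 RPKM. The 7 muscle markers summed to 11.8 to 57.2 RPKM, with the myosin gene Mhc at 4.05 RPKM at most, fln at 9.05 to 21.6 RPKM and Mf listed at 0. Photoreceptor transcripts differed far more between libraries, from 78.0 to 8968 RPKM summed over the marker list, and Arr2 was listed at 0. The 5 libraries richest in them were male control 4, 5 and 6, female control 4 and male PDE 3. In such bulk samples fewer cells of a type and less RNA per cell cannot be told apart.

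The pathway as a whole was strongly expressed. Levels of different genes are compared here as exon RPKM, recomputed from the recovered reads over exon length alone, because the length behind the deposited RPKM includes introns. Whether reads in introns were counted is not stated. If they were, genes with long introns, such as kdn with a span of 3.77 times its exons, stand too high on this scale. On that scale 23 of the 29 measured enzymes lay above 90% of the genes tested, and 3 (ScsbetaG, fbp and Ldh) lay below 50% of them. Together the enzymes took 1.09 to 1.49% of the reads of a library. The spread over the 25 libraries was small, with a coefficient of variation between 4.65 and 13.0% for 27 enzymes, against a median of 10.96% over all genes tested. The exceptions were Ldh at 116.8% and fbp at 49.9%.

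**Figure D1:**
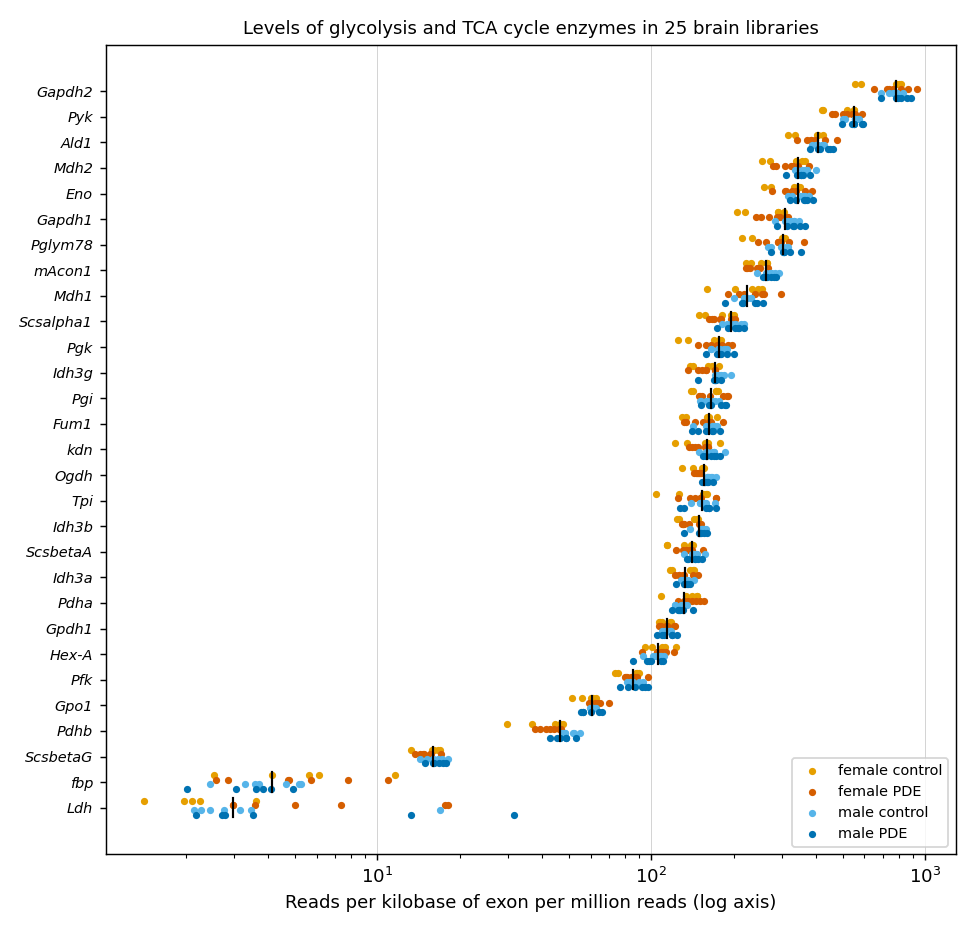
Level of each measured enzyme in each of the 25 libraries, as exon RPKM (reads per kilobase of exon, scaled to library size) on a log axis, coloured by group, with the median as a black bar. Gapdh2 stood highest with a median of 783 and Ldh lowest with 2.97, and the libraries of most enzymes formed a narrow band.

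Among the glycolytic enzymes Gapdh2, Pyk and Ald1 stood highest. Gapdh2, a glyceraldehyde-3-phosphate dehydrogenase, had a median of 783 exon RPKM, the scale of all levels here and in the next paragraph. Pyruvate kinase (Pyk), the last step, followed at 547.5 and the aldolase Ald1, which splits fructose bisphosphate, at 406. These were the first 3 of all enzymes, and each exceeded the next in all 25 libraries. Enolase (Eno) was at 342, Gapdh1, the second glyceraldehyde-3-phosphate dehydrogenase, at 307.5 and the phosphoglycerate mutase Pglym78 at 301.5. Hexokinase Hex-A, the entry step, was at 106 and phosphofructokinase Pfk, a main point of control, at 85.7. Above these lay phosphoglycerate kinase (Pgk) at 176.0, glucose-6-phosphate isomerase (Pgi) at 166 and triosephosphate isomerase (Tpi) at 153. Fructose-1,6-bisphosphatase (fbp), which runs a step of the pathway backwards for gluconeogenesis, had a median of 4.14, and lactate dehydrogenase (Ldh) 2.97.

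Of the mitochondrial enzymes, malate dehydrogenase Mdh2 stood highest at 344 and could not be ranked against Eno, which it exceeded in 13 of 25 libraries. Aconitase (mAcon1), which isomerises citrate, was at 262 and the cytosolic malate dehydrogenase Mdh1, part of the malate shuttle, at 223. Scsalpha1, the shared subunit of succinyl-CoA synthetase, was at 195. The 3 subunits of the NAD-dependent isocitrate dehydrogenase lay close together, with Idh3g at 170, Idh3b at 149 and Idh3a at 133. Fumarase (Fum1) at 162.5, citrate synthase (kdn) at 160 and the oxoglutarate dehydrogenase Ogdh at 156 were neighbours whose order changed from library to library. The ADP-forming subunit of succinyl-CoA synthetase, ScsbetaA, was at 140.5 and its GDP-forming counterpart, ScsbetaG, at 15.9. The alpha subunit of pyruvate dehydrogenase, Pdha, was at 132 and the beta subunit, Pdhb, at 46.5, with Pdha higher in all 25 libraries. In the glycerol phosphate shuttle the cytosolic Gpdh1 was at 114 and the mitochondrial Gpo1 at 60.8.

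The second hexokinase of the set, Hex-C, was listed at 0 in all 25 libraries. Its whole span (2R, 15218837 to 15220329, Ensembl BDGP6.54) lies inside CG8079 on the opposite strand. Of 1045 protein-coding genes placed like that, 959 were listed at 0 in all libraries (91.8%), against 287 of 7730 without any overlap (3.7%). The 0 of Hex-C therefore gives no measure of its expression. Among enzymes that share part of their span with an expressed opposite-strand gene are Pgk (624 bases with Bacc), Fum1 (695 bases with ND-ASHI) and Idh3g (158 bases with RpL27), and the counter's treatment of such reads is not given in the sources used here. Of 12 paralogs that the table lists, 1 passed the minimum, Gpdh3 at 4.245 to 7.203 RPKM. The other 11 reached 0.595 RPKM at most (Fum2). Gapdh1 and Gapdh2 are near-identical copies, and how reads that fit both were assigned is not known.

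The comparison of PDE with control flies asks which enzymes changed with the exposure. In females no enzyme passed at an adjusted p under 0.05 (limma, Benjamini-Hochberg over 7985 genes), where 0.0751% of all genes did, and in males again none, against 0.175%. Averaged over the sexes none of the 29 passed, against 0.413% of all genes. For the difference between the male and the female change the count was 0 of 29 enzymes and 0.0% of all genes. By the unadjusted p under 0.05, 1 enzyme (Ldh) counted in females and in the average and none in males or in the difference, against 4.8, 6.41, 3.99 and 2.22% of all genes. No enzyme had groups without overlap after PDE in either sex, where 0.313% of genes did in females and 0.363% in males. These shares of enzymes were at or near the background.

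A range for the change can be given for most of the pathway. Without Ldh and fbp, the 95% intervals of the other 27 enzymes reached from −0.18 (ScsbetaG) to 0.36 (Gapdh2) in females on the log2(RPKM + 1) scale, and from −0.24 (Pdhb) to 0.26 (Gapdh2) in males. Each interval covers 1 enzyme at a time and rests only on the spread between these libraries. A rise of more than 1.28 times or a fall below 0.84 times lay outside these intervals in either sex. Averaged over the sexes they ran from −0.14 (Idh3g) to 0.25 (Gapdh2).

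**Figure D2:**
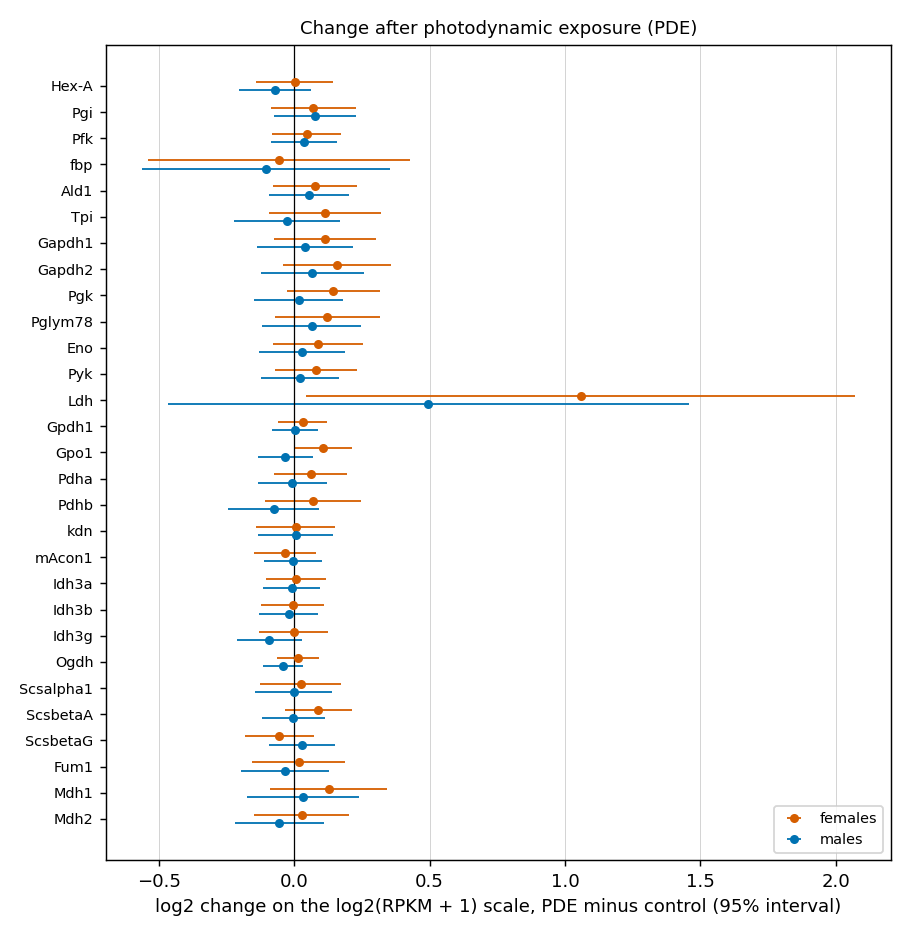
Change after PDE of each measured enzyme in females (orange) and males (blue), as the difference of group means on the log2(RPKM + 1) scale with its 95% interval. All intervals in males and all but that of Ldh in females include 0, and the intervals of Ldh and fbp are the widest.

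In females 24 of 29 changes were above 0, with a median of 0.06, beside a median of 0.01 over all genes tested. Of glycolysis 12 of 13 were above 0 and of the TCA cycle 8 of 12. Here and below such counts do not add up separate observations. The enzymes moved together between the libraries of a group, with a median Pearson r of 0.75 over pairs. Phosphoglycerate kinase, which makes the first ATP of glycolysis, had Pgk values of 46.5, 61.4, 42.8, 60.1 and 58.1 RPKM in the 5 control libraries and 50.6 to 67.5 RPKM after PDE (median 59.4). Its change of 0.14 (SE 0.083, adjusted p = 0.9994) had the smallest p among the glycolytic enzymes after Ldh. Gpo1, the mitochondrial end of the glycerol phosphate shuttle, was at 32.7, 36.7, 30.1, 35.9 and 35.4 RPKM and at 34.6 to 40.9 RPKM after PDE (median 36.5), a change of 0.11 (SE 0.052, adjusted p = 0.9994). The lowest values of both genes were those of female control 1 and 3. The enzymes took 1.09 and 1.10% of the reads of these libraries, and 1.35 to 1.37% of the other 3 female controls. Without both libraries 2 of 29 changes were above 0 in females and the median turned to −0.06. It turned to −0.04 with neuronal transcripts and to −0.02 with glial transcripts as a covariate.

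The changes below 0 in females were small. ScsbetaG, the GDP-forming subunit, was at 10.6 to 13.6 RPKM in controls (median 13.0) and at 11.03 to 13.78 RPKM after PDE (median 11.9). Aconitase, mAcon1, was at 148 to 178.5 RPKM and at 149 to 180 RPKM, with overlapping groups. The gluconeogenic fbp was at 1.95, 5.46, 1.19, 2.88 and 2.64 RPKM in controls and 1.21 to 5.18 RPKM after PDE (median 2.24), again with overlapping groups.

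In males 14 changes were above 0 and 15 below, with a median of 0.00, beside 58.7% of all genes above 0 and a median of 0.01. With glial transcripts as a covariate 2 of 29 were above 0 (median −0.08), and with neuronal transcripts 1 of 29 (median −0.09). Of glycolysis 10 of 13 were above 0, and of the TCA cycle 9 of 12 were below. Idh3g, a regulatory subunit of isocitrate dehydrogenase, was at 139 to 158 RPKM in controls (median 144) and at 120 to 145.0 RPKM after PDE (median 138), and its change of −0.09 (SE 0.059, adjusted p = 0.9999) had the smallest p. Ogdh was at 61.9 to 66.8 RPKM in controls (median 63.0) and at 59.5 to 65.2 RPKM after PDE (median 61.5), a change of −0.04 (SE 0.036). Hexokinase, Hex-A, was at 93.2 to 112 RPKM in controls (median 106) and at 85.8 to 110.4 RPKM after PDE (median 98.9). For each of these genes the groups overlapped. Pgi was at 117 to 138 RPKM in controls (median 125) and at 118 to 146 RPKM after PDE (median 134), and Ald1 at 195.0 to 217 RPKM and at 193 to 233 RPKM. Their changes of 0.08 and 0.05 had the smallest p above 0 after Ldh, and both turned below 0 with glial or neuronal transcripts as a covariate. The summed neuronal markers were lower after PDE in males (mean 441 RPKM in controls against 421.5 RPKM, exact permutation test, two-sided p = 0.0233), though not over 14 such tests (adjusted p = 0.109). In the same tests males after PDE had smaller libraries (mean 36.14 M reads in controls against 23.95 M reads, exact permutation p = 0.00583, adjusted p = 0.0816) and higher haemocyte markers (9.24 RPKM in controls against 12.6 RPKM, exact permutation p = 0.0221, adjusted p = 0.109). The summed glial markers had a higher mean after PDE in males (930.5 RPKM in controls against 1047 RPKM, exact permutation p = 0.0699). They did so in females too (834 against 944 RPKM, exact permutation p = 0.0808, adjusted p = 0.189 in both sexes). The neuronal and glial covariates thus adjust for measures whose means themselves differed between control and PDE libraries. The part of library size and haemocyte RNA in the values of the enzymes was not tested.

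Averaged over the sexes 18 of 29 changes were above 0, 11 of 13 in glycolysis and 4 of 12 in the TCA cycle. Next to Ldh the smallest p belonged to Gapdh2 at 0.11 (SE 0.067, adjusted p = 0.917) and Pglym78 at 0.09 (SE 0.064, adjusted p = 0.982), and both signs turned with the glial or the neuronal covariate. Below 0 the smallest p belonged to Idh3g at −0.05, Hex-A at −0.03 and Ogdh at −0.01. Without female control 1 and 3, again the pair low in the enzymes, the count above 0 was 4 of 29. It was 1 of 29 with the glial and 2 of 29 with the neuronal covariate.

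The other enzymes moved little in either sex. In females the changes of Pfk, Tpi, Eno and Pyk in glycolysis were 0.05, 0.11, 0.09 and 0.08, and in males 0.04, −0.03, 0.03 and 0.02. In females those of kdn, Idh3a, Idh3b, Scsalpha1, ScsbetaA, Fum1, Mdh1 and Mdh2 in the TCA cycle were 0.00, 0.01, −0.01, 0.02, 0.09, 0.02, 0.13 and 0.03. In males the same enzymes lay between −0.05 (Mdh2) and 0.03 (Mdh1), and Gpdh1 of the shuttle was at 0.03 in females and 0.00 in males. None of these reached an unadjusted p under 0.05.

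The difference between the male and the female change was below 0 for 25 of 29 enzymes, with a median of −0.06 beside 0.00 over all genes. Gpo1 at −0.14 (SE 0.072) and Pdhb at −0.14 (SE 0.118) had the smallest p of these, and ScsbetaG at 0.08 (SE 0.085) the smallest of the 4 above 0, each with adjusted p = 0.999. Without female control 1 and 3, the pair low in the enzymes, 26 of 29 were above 0.

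Lactate dehydrogenase behaved unlike the other enzymes. Ldh (3L, 6259105 to 6262694, minus strand) was at 0.763, 1.14, 1.22, 1.06 and 1.95 RPKM in female controls, and at 1.60 to 9.76 RPKM after PDE in females (median 2.71). Male controls had 1.16 to 9.15 RPKM (median 1.49) and males after PDE 1.18 to 17.1 RPKM (median 1.71). Most libraries lay below 2 RPKM, and 5 lay above 7 RPKM: female PDE 5 and 6, male control 6 and male PDE 1 and 5. So the high values were not confined to treated flies, and in every comparison the groups overlapped. The log2 change was 1.06 in females (SE 0.49, adjusted p = 0.9994), 0.50 in males (SE 0.47, adjusted p = 0.9999) and 0.78 on average (SE 0.34, unadjusted p = 0.0308, adjusted p = 0.661). It stayed uncalled in each alternative tried, with a female change of 0.52 to 1.52. Between 39 and 1711 reads stood behind a value.

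The comparison of the sexes asks how far the enzymes differ between male and female brains, with and without exposure. In controls 2 of 29 enzymes passed, both higher in males, a share near the 4.75% of all genes that did. Ogdh, which carries out the oxoglutarate step of the TCA cycle, was at 50.4, 55.2, 60.3, 59.7 and 59.2 RPKM in females and at 61.9 to 66.8 RPKM in males (median 63.0). Every male control lay above every female control, a separation that 2.97% of genes showed. The difference was 0.16 (SE 0.038, adjusted p = 0.0131). Pdhb, the beta subunit of pyruvate dehydrogenase, was at 23.9, 31.1, 19.4, 30.3 and 29.1 RPKM in females and at 30.8 to 35.9 RPKM in males (median 31.7), with 1 female control inside the male range. Its difference was 0.30 (SE 0.086, adjusted p = 0.0434).

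Gapdh1 differed by as much without passing, at 220, 305, 206, 291 and 290 RPKM in females and 284 to 346 RPKM in males (median 323), a difference of 0.30 (SE 0.091, adjusted p = 0.061). By the unadjusted p, 12 of 29 enzymes were higher in control males and none lower, where 16.0% of all genes counted in either direction. All 12 TCA cycle enzymes had differences above 0, and 26 of 29 in the whole set, with a median of 0.14 against −0.01 over all genes tested. As the enzymes moved together between libraries, these counts are not counts of independent genes. Below 0 were Hex-A at −0.04, Pdha at −0.06 and fbp at −0.33.

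**Figure D3:**
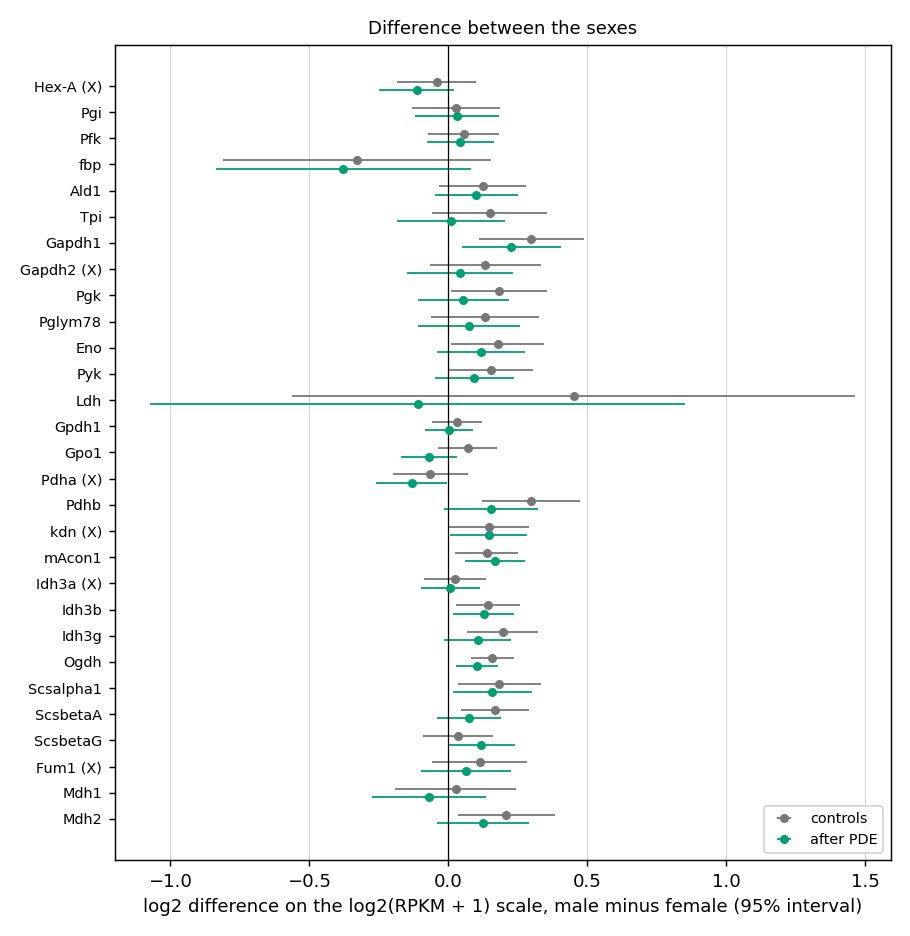
Male minus female difference of each measured enzyme in controls (grey) and after PDE (green), on the log2(RPKM + 1) scale with its 95% interval; X marks X-linked genes. Most differences in controls lie above 0 with a median of 0.14, and those of the X-linked Hex-A and Pdha lie below 0 in both comparisons.

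The direction in controls rested on the same pair of female libraries, of which female control 3 had the fewest reads of all 25. Without female control 1 and 3, 14 of 29 differences were above 0 with a median of −0.01, Pdhb was at 0.11 (SE 0.066, adjusted p = 0.456) and Ogdh kept its call at 0.13 (SE 0.034, adjusted p = 0.0358). With a single female control left out, 0 enzymes passed without replicate 1, 1 (Ogdh) without replicate 3, 3 without replicate 2 or 5 and 4 without replicate 4. Over all alternatives Ogdh was called in 36 of 41 and Pdhb in 17 of 41. Of these, 25 left out 1 library, and leaving out a PDE library cannot move a difference between control means. The counts therefore hold many near repeats of the main fit. Without the 5 libraries richest in photoreceptor transcripts the differences were as large, at 0.16 (SE 0.048, adjusted p = 0.106) for Ogdh and 0.34 (SE 0.107, adjusted p = 0.121) for Pdhb, with larger errors and no call.

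After PDE no enzyme passed between the sexes at an adjusted p under 0.05, against 4.92% of all genes. Other settings called up to 7 enzymes, the most with neuronal transcripts as a covariate. By the unadjusted p 6 enzymes were higher and 1 lower in males, against 15.7% of genes. The separation of Ogdh recurred, at 55.7 to 58.8 RPKM in females (median 57.5) and 59.5 to 65.2 RPKM in males, without overlap, as in 3.01% of genes. Its difference was 0.10 (SE 0.036, adjusted p = 0.103). The smallest p belonged to mAcon1, at 149 to 180 RPKM in females and 172 to 191.5 RPKM in males, a difference of 0.17 (SE 0.052, adjusted p = 0.0655). Pdha, X-linked, was lower in males at 85.9 to 102 RPKM against 90.5 to 113 RPKM, a difference of −0.13 (SE 0.062, adjusted p = 0.293). Gapdh1 was at 241 to 316 RPKM in females and 288 to 364 RPKM in males, a difference of 0.23 (SE 0.086, adjusted p = 0.157). Hex-A at −0.11 and fbp at −0.38 were the next below 0. Of 29 differences 23 were above 0 with a median of 0.07, and 18 after quantile normalization.

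Partner enzymes were also compared with each other within each library, as ratios of exon RPKM. The 10 ratios were those of isozymes, of subunits of a complex, and of Gpdh1 to Gpo1 in the glycerol phosphate shuttle. They were tested for 4 contrasts, an analysis added after the values had been seen. The exact two-sided permutation test was used, with adjustment over the 40 tests. The ratio of Pdhb to Pdha, the subunits of pyruvate dehydrogenase, was 0.273, 0.326, 0.275, 0.315 and 0.315 in female controls and 0.358 to 0.408 in male controls (median 0.39). After PDE it was 0.293 to 0.315 in females and 0.347 to 0.392 in males. The sexes did not overlap in either condition, and the log2 ratio was higher in males by 0.37 in controls and by 0.29 after PDE (adjusted p = 0.0144 for both).

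The same held for Gapdh1 against Gapdh2, at 0.352 to 0.398 in female controls, 0.41 to 0.426 in male controls, 0.339 to 0.389 in females after PDE and 0.397 to 0.418 in males after PDE. Males were higher by 0.17 and 0.18 on the log2 scale (adjusted p = 0.0144 for both), with no overlap. In isocitrate dehydrogenase, Idh3b to Idh3a was 1.002 to 1.066 in female controls and 1.079 to 1.175 in male controls, higher by 0.12 without overlap, and again by 0.12 after PDE with overlapping groups (adjusted p = 0.0144 for both). Idh3g to Idh3a was higher in control males by 0.17 without overlap (adjusted p = 0.0144) and after PDE by 0.10 (adjusted p = 0.0466), a call lost in 12 of 14 alternatives that left out libraries. The ratio of the cytosolic Mdh1 to the mitochondrial Mdh2 was lower in males, by −0.18 in controls (adjusted p = 0.0253) and −0.20 after PDE (adjusted p = 0.0424). The second call was lost in 9 of 14 such alternatives. Each of the 5 control calls was lost in 1 of 13, without the photoreceptor-rich libraries (adjusted p = 0.0952). With so few control libraries left, the exact test can hardly give a small enough p. That loss therefore cannot show whether the ratios depend on these libraries. All 5 differences kept their direction over the 13 alternatives.

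**Figure D4:**
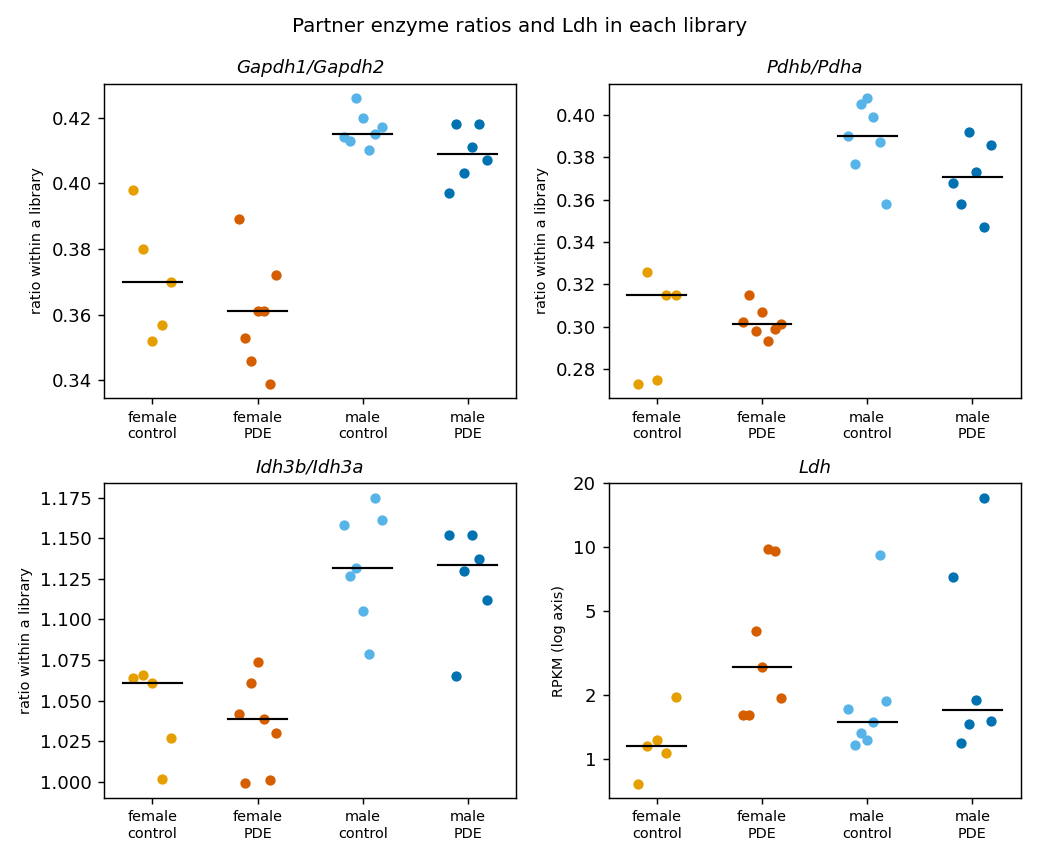
Ratio of exon RPKM of Gapdh1 to Gapdh2, Pdhb to Pdha and Idh3b to Idh3a, and RPKM of Ldh on a log axis, in each library by group, with the group median as a bar. Within controls and within PDE the ratios of males lie above those of females without overlap for the first and second ratio, while 5 libraries from 3 groups hold Ldh above 7 RPKM.

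In the 4 ratios that were higher in males, the gene in the denominator (Pdha, Gapdh2, Idh3a) lies on the X chromosome and the other on an autosome. Over all genes tested, X-linked genes had a median male minus female difference of −0.05 in controls and −0.06 after PDE, and genes on the other arms a median of 0.00 in both. The X-linked enzymes had a median of 0.07 in controls and the autosomal ones 0.15, and after PDE 0.03 and 0.09. Whether the X linkage has a part in the ratios was not tested. Of the 6 ratios between autosomal genes, Mdh1 to Mdh2 passed between the sexes, and the other 5 did not in either condition.

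With PDE the ratios moved little. In females none of the 10 passed. In males the log2 ratio of Idh3g to Idh3a changed by −0.08 (adjusted p = 0.042) and that of Idh3g to Idh3b by −0.07 (adjusted p = 0.0311), each with overlapping groups, beside −0.01 and 0.00 in females. These calls were lost in 10 and in 5 of 14 alternatives, and whether males differed from females in this was not tested.

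Within a group, most of the enzymes went up and down together from library to library. With group means removed, the median Pearson r over the 406 pairs of enzymes was 0.75, and 308 pairs exceeded 0.5 (75.9%). Over all 31876120 pairs of tested genes the median was 0.1, with 12.6% above 0.5. Pairs within glycolysis had a median of 0.83, pairs within the TCA cycle 0.70, and pairs between them 0.77. The tightest pair was Pgk and Pglym78, consecutive steps of lower glycolysis, with r = 0.974 and Spearman's rho = 0.964 (permutation tests, adjusted p = 4.1e-05 and 4.72e-05 over 406 pairs), and r = 0.954 without the 2 libraries farthest from the median. Pgk also followed the mitochondrial Mdh2 (r = 0.971). After quantile normalization the median over pairs was 0.43, and without the photoreceptor-rich libraries 0.79.

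**Figure D5:**
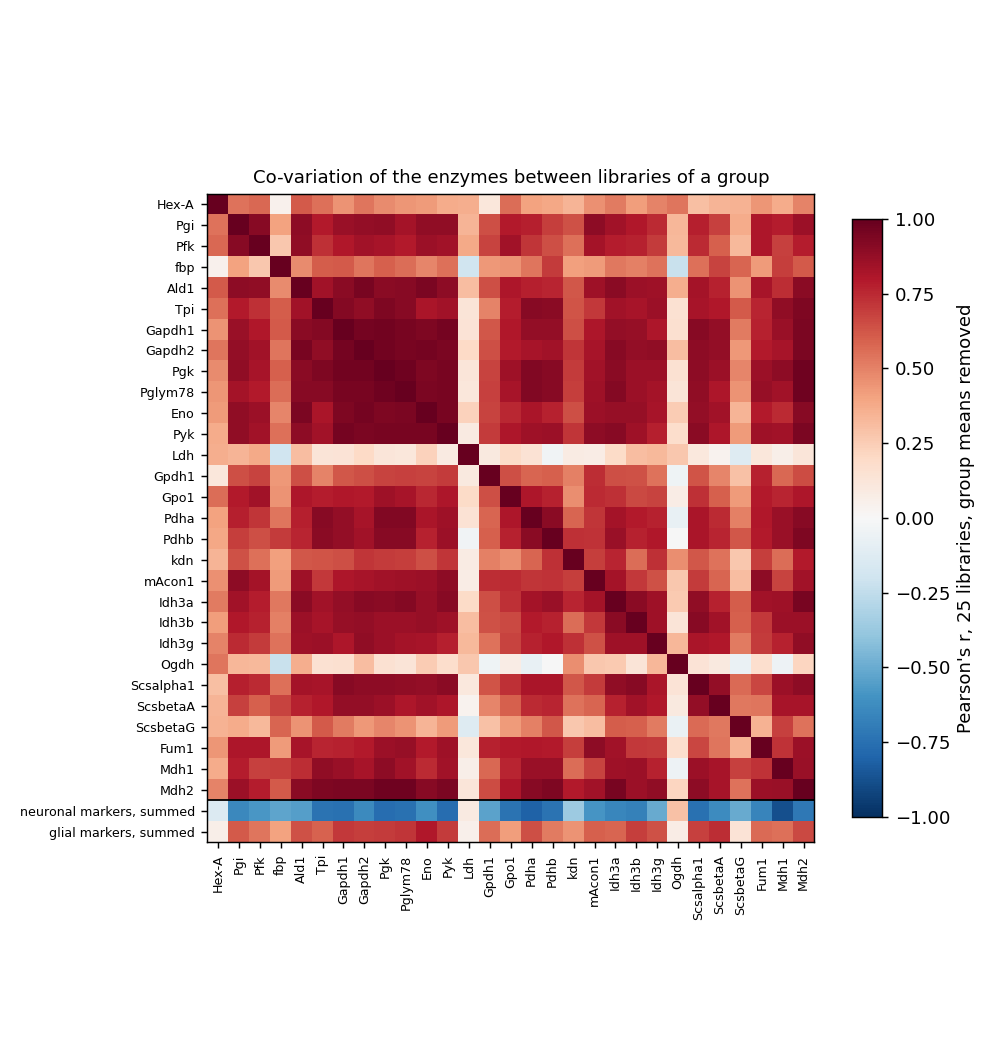
Pearson's r between the measured enzymes over 25 libraries with group means removed, and in the lowest rows with the summed neuronal and glial markers. The block of high r takes in glycolysis and the TCA cycle alike, while Ldh and Ogdh stand out as pale lines with a median r of 0.12 and 0.16 to the other enzymes.

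The enzymes outside this pattern were few. Ldh had a median r of 0.12 with the others and Ogdh 0.16. Next came Hex-A at 0.44, ScsbetaG at 0.45 and fbp at 0.53, and all others lay at 0.62 or above. Ogdh, part of a complex built like pyruvate dehydrogenase, went with Hex-A, with r = 0.535 and rho = 0.497 (permutation tests, adjusted p = 0.0225 and 0.0355), and r = 0.448 without the 2 farthest libraries.

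Summed cell type markers and transcript length moved with the same pattern. The sums add RPKM, so a few highly expressed genes weigh most in them. In female controls nSyb had a median of 297 RPKM, beside 424 RPKM for the neuronal sum. Gs2 and nrv2 had medians of 396 and 256 RPKM there, beside 813 RPKM for the glial sum. The enzymes were lower in libraries with more neuronal marker RNA, with a median r of −0.64 over 29 enzymes and 21 at an adjusted p under 0.05 (permutation test, over 174 relations), against a median of −0.38 over all genes. They were higher with more glial marker RNA, with a median r of 0.59 and 22 of 29 enzymes, against 0.17 over all genes. The strongest tie was to the share of reads in long transcripts, those of 1438 genes with more than 5000 bases of exon, which ranged from 36.6 to 44.4% of a library. There the median r was −0.80 with 26 of 29 enzymes, against −0.37 over all genes. Mdh1 had r = −0.93 and rho = −0.932 with that share (adjusted p = 0.000158 and 0.000435), and r = −0.883 without the 2 farthest libraries. Eno had r = 0.804 and rho = 0.764 with the glial sum (adjusted p = 0.000158 and 0.00058), and r = 0.831 without them. Ldh, Ogdh and Hex-A passed with none of these 3 measures. Photoreceptor and fat body markers gave 0 calls and library total 1 of 29 (Hex-A). The enzymes and these measures come from the reads of the same library, and the part of cell types, transcript length or RNA quality in the shared movement was not tested.

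The sex comparison was refitted with that share held fixed. With the share of reads in long transcripts as a covariate, a choice made after seeing the data, 13 enzymes were called in controls, where 9.29% of all genes were. Gapdh1 then differed by 0.31 (SE 0.052, adjusted p = 0.00037) and Pdhb by 0.30 (SE 0.042, adjusted p = 2.89e-05). After PDE 6 enzymes were called, among them Gapdh1 and mAcon1, higher in males, and Pdha, lower in males, against 9.86% of genes. The count for PDE against control stayed at 0 in both sexes.

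No other gene of sugar metabolism that was tested was called. Of 33 genes for sugar supply and storage, pyruvate entry, side branches of the TCA cycle and the pentose phosphate path, 29 were tested and 0 passed in any of the 6 contrasts. By the unadjusted p under 0.05, 1 lay higher and 1 lower in females after PDE and 0 in males, beside 4.8 and 3.99% of all genes. Between the sexes 5 lay higher and 2 lower in control males and 2 higher after PDE, beside 16.0 and 15.7% of all genes. Mpc1, a subunit of the mitochondrial pyruvate carrier, had the smallest p in the averaged PDE contrast, with a change of −0.15 (SE 0.047, unadjusted p = 0.00416, adjusted p = 0.337) at levels of 34.3 to 49.1 RPKM. ATPCL, which makes cytosolic acetyl-CoA, was at 0.05 (adjusted p = 0.865), glycogen phosphorylase GlyP at 0.09 (adjusted p = 0.896) and the glycogen branching enzyme AGBE at 0.12 (adjusted p = 0.9499). The succinate dehydrogenase subunits SdhA, SdhB, SdhC and SdhD, the TCA cycle step missing from the enzymes above, were at −0.01, 0.03, 0.02 and 0.00 in that contrast.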

How the data were processed

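Brain RNA of 25 libraries was isolated with a Maxwell RSC simplyRNA kit and made into libraries with the SMART-Seq mRNA LP kit, per the labels' protocols. Reads were aligned with STAR to dm6, per the submitters' processing notes, and the authors deposited RPKM values per gene. The read counter, its annotation and its use of strand are not stated there. Every column of the table was assigned to a sample, leaving 0 unassigned.

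The steps between low RPKM values gave whole reads for 13518 genes (tolerance 0.03). The length in use was the genomic span in 85.8% of genes with introns, so levels between genes were recomputed per kilobase of exon. Totals of 8.88 to 58.73 M reads set the precision of low genes.

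Tests used limma 3.58.1 (R 4.3.3) with an intensity trend on log2(RPKM + 1), 7985 genes with 1 RPKM or more in 5 libraries, 4 group means and Benjamini-Hochberg adjustment over all genes, called at 0.05. The script was tested on simulated data. Ratios were tested with exact permutation tests, and co-variation with 100000 permutations within groups, for which 1e-05 is the smallest p, in Python 3.11.15 with scipy 1.17.1. All members are named; values per group are given for members called in a contrast and for up to 3 with the smallest p per contrast and direction, and of other pathway genes the 4 with the smallest p in the averaged PDE contrast are named. Ratios, Sdh genes and genes most alike were added after values were seen. The members and all lists were chosen with earlier results of these data known. Alternatives covered scaling, filters, pseudocount, covariates and left-out libraries.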

Additional observations from a re-analysis of the deposited data

Results flagged for a closer look

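In 4 of the 116 groups of enzyme values, a library stood apart from the rest of its group by Dixon's test at its 95% critical value, which chance alone passes in about 1 of 20 groups. Ldh was at 9.148 RPKM in male control 6, and at 1.161 to 1.878 RPKM in the other male controls. Idh3b was at 95.02 RPKM in male control 5, against 104.2 to 108.6 RPKM in the others. In male PDE 2 both Idh3b at 90.64 RPKM and Idh3g at 119.6 RPKM lay below the other males after PDE, which had 102.8 to 110.0 RPKM of Idh3b and 137.2 to 145.0 RPKM of Idh3g.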

How the results depend on the processing

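No enzyme was called for PDE in any alternative. Of 1464 recomputed values for 36 results, 1374 kept direction and side of the threshold, 29 lost a call or fell by over 1.5 times as a count, 27 gained, and 34 changed sign. Among the 1464 are fits that left out a library outside the groups compared, which cannot move the difference. The count of enzymes that differed between the sexes in controls was 1 with no filter, with array weights, with voom on recovered reads, with the photoreceptor or the glial covariate and without female control 1 and 3. It was 0 with only the groups compared and without the 5 photoreceptor-rich libraries, 5 after quantile normalization, 6 with median-ratio factors, 12 with the neuronal covariate, 13 with the long-transcript covariate and 0 to 4 with 1 library left out. Ogdh was called in 36 of 41 alternatives and Pdhb in 17, counting the fits that left out a PDE library. After PDE the count was 2 after quantile normalization, 3 with median-ratio factors and without female control 1 and 3, 5 with array weights, 1, 7 and 6 with the glial, neuronal and long-transcript covariates, and 0 to 2 with 1 library left out.

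Signs reversed as follows. The PDE change of Pgk in females was −0.02191 without female control 1 and 3 and −0.0005669 with the neuronal covariate. With the glial and the neuronal covariate, Ald1 in males was at −0.03839 and −0.03088, Pgi in males at −0.01401 and −0.0246, Gapdh2 on average at −0.01779 and −0.02133, and Pglym78 on average at −0.03794 and −0.05791. Ogdh on average was at 0.002312 without the photoreceptor-rich libraries and 0.007943 with the neuronal covariate. In the difference between the sexes in PDE change, Pdhb was at 0.001657 with array weights, and without female control 1 and 3 it was at 0.042 and ScsbetaA at 0.01444. There Pgi was at −0.01956 after quantile normalization, −0.0449 without the photoreceptor-rich libraries and −0.0017 with the long-transcript covariate, and mAcon1 at −0.004772 without the photoreceptor-rich libraries. With 1 library left out, fbp in females ran from −0.2333 to 0.1565, Pgi in the difference from −0.02853 to 0.05426, and the sex difference of Hex-A in controls from −0.08625 to 0.006753. The cause of these shifts was not tested. The covariates other than photoreceptors and the removal of female control 1 and 3 were chosen after seeing the data.

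The labels do not say whether replicate numbers pair the libraries. Over 34 pairs of equal number the deviations from the group means had a median correlation of 0.081, and 16 exceeded 0.1. Over 199 pairs of other numbers the median was −0.026, and 64 exceeded 0.1. Single pairs of equal number ran from −0.688 to 0.75, too wide a range to decide whether numbers mark pairs. With the replicate block, 3 enzymes differed between the sexes in controls (Idh3g, Ogdh and Pdhb), and the other 5 counts stayed at 0. Fits of only the groups compared could not be made for the average and the difference, which use all 4 groups. Depth limited Ldh and fbp, with 39 and 27 reads in their lowest libraries.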

Other observations

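The gene whose level followed Ldh most closely across libraries, of all 7985 tested, was its neighbour. The non-coding lncRNA:CR44522 lies 313 bases upstream of Ldh on the same strand (3L, 6263008 to 6263399, BDGP6.54) and had r = 0.889 with group means removed, against 0.682 for the next gene, CG7130. It was thinly covered, with 0 to 47 reads a library. Its RPKM was highest in male PDE 5 (3.56), male control 6 (3.14) and female PDE 5 (2.84), which are among the 5 libraries with Ldh above 7 RPKM. Female control 5 was also high in it (2.05) with Ldh at 1.95 RPKM. Whether these reads belong to a longer Ldh transcript was not tested.

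Genes most alike were also sought for Pgk, which moved closely with the other enzymes (median r = 0.87), and for the outlying Ogdh and fbp. Of the 10 genes most like Pgk, 7 were enzymes of the set, and the others were ATPsyngamma of the ATP synthase, the mitochondrial channel porin and Cyt-c1 of the respiratory chain, at r = 0.946, 0.934 and 0.931. The genes most opposed to Pgk were Spn (r = −0.91), Ca-alpha1D (−0.907), tai (−0.90), bab1 (−0.896) and CadN (−0.895), each with more than 5000 bases of exon. None of the 10 genes most like Ogdh, led by CG8180 (r = 0.806) and Fhos (0.805), belonged to the set.

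The same was true of fbp, which followed CG7322 and Dso1 (both r = 0.889), UK114 (0.871) and the galactokinase gene Galk (0.867). With the summed fat body markers fbp had r = 0.61 and rho = 0.785 (permutation tests, adjusted p = 0.0562 and 0.000835 over 174 relations), and r = 0.484 without the 2 farthest libraries. The yolk protein gene Yp1, one of those markers, ran from 45.7 to 2572 RPKM in female controls and from 6.85 to 34.7 RPKM in male controls. The part of fat body RNA in the level of fbp was not tested. The genes named here were chosen after their values were seen, and the correlations over all genes are descriptions over 25 libraries that share depth and composition.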
